A study of Mus musculus with 12 samples.

Results

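The genes described here encode the core of the spliceosome, the RNA and protein machine that removes introns from pre-mRNA, and the SR splicing factors that guide it to exons. They were chosen by symbol from the array's annotation: every gene whose symbol starts with Snrp, Lsm and a number, Sf3a, Sf3b, Srsf or Prpf and that has a probe set assigned to it alone. The rule found 52 genes of 18194 with such a probe set, covered by 136 of the 45101 probe sets on the array. By role they were 5 core Sm proteins, 4 further Snrp proteins of the U1 and U2 particles or related to Sm, 12 LSm proteins, 9 subunits of SF3A and SF3B, 12 PRPF proteins and 10 SR factors.

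RNA of whole blood from C57Bl/10 mice aged 3 months, 1 mouse per array and 4 per group, was measured on Affymetrix mouse genome arrays. CH mice lived in chronic normobaric hypoxia for 2 weeks while oxygen was lowered to 8% from 21%. REC mice had the same 2 weeks of hypoxia and then 2 weeks at 21% oxygen, and NX mice stayed at 21% oxygen throughout. All were wild type and untreated otherwise, and one label field calls the CH mice normoxic, whereas their titles and the treatment text give hypoxia. Whole blood holds red cell precursors, platelets and several kinds of white cell, so each signal is a sum over cell types, and fewer cells of a type and less RNA per cell cannot be told apart.

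A spliceosome is built from small nuclear RNAs, each wrapped with proteins into a particle (snRNP). Sm proteins form a ring around the U1, U2, U4 and U5 RNAs, and LSm proteins form the like ring on U6. SF3A and SF3B belong to the U2 particle, which finds the branch site of the intron, while PRPF proteins sit mostly in the U4/U6.U5 particle and in the catalytic core. SR factors carry an RNA-binding domain and a tail rich in arginine and serine. They bind exonic enhancers and help the particles to choose splice sites, and kinases set their activity. In blood, SF3B1 and SRSF2 are known in humans as genes mutated in myelodysplasia, and maturing red cells lose their nucleus and with it the place where splicing occurs.

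Each array gave 1 signal per probe set on a linear scale, and all arrays share a trimmed mean of 150. Changes are differences of group means of log2(signal + 16), fitted by limma, given with the standard error. A gene was called where the Benjamini-Hochberg adjusted p, taken over all 45101 probe sets, was under 0.05 and the change at least 2-fold. A gene with several probe sets is represented by its brightest one. Of the 52 genes, 2 had a mean signal under 32, Snrpn and Srsf12, and the means spanned 7.85 to 2983.

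The arrays differed beyond the members. The spiked hybridisation controls averaged 14.3 ± 0.255 (log2 signal, SD) on CH arrays, 11.9 ± 0.232 on REC arrays and 12.7 ± 0.441 on NX arrays, without overlap (exact permutation p = 0.0286 for each pair, two-sided, the smallest that 4 arrays against 4 allow). The ratio of 3′ to 5′ beta-actin signal was 2.00 ± 0.0941 on CH arrays, 1.61 ± 0.0923 on REC arrays and 1.71 ± 0.104 on NX arrays. Of 10 erythroid markers measured, 9 were higher in CH than in NX blood, and their summed signal ranged over 126547 to 203440 in CH, 4489 to 16723 in REC and 24704 to 36746 in NX mice. All 8 T cell markers and 6 of 7 B cell markers were lower in CH than in NX blood. The shares over all genes were 9.08% called higher and 19.5% called lower. The third CH mouse stood apart, with a summed B cell signal of 11297 against 2054, 2321 and 4933 in the other CH mice, and it was the highest CH array for 34 of the 52 genes.

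The starts of 4 members that span the patterns below are shown as the 250 bases upstream of the annotated start. Snrpe is the Sm gene with the largest change in REC blood, and Sf3b3 the SF3 gene with the largest fall in CH against NX. The brightest probe sets of the SR genes Srsf3 and Srsf6 moved in opposite directions between CH and REC blood in the deposited scaling. The sequences come from RefSeq on GRCm38.p6 and read 5′ to 3′ on the gene's strand. The places are chr1:133610281-133610530 (minus strand), chr8:110846804-110847053 (minus), chr17:29032410-29032659 (plus) and chr2:162931258-162931507 (plus). Capitals mark matches on either strand. The letters searched were CCGGAAG as the core that ETS factors bind and GGGCGG as the GC box that factors of the Sp family bind. Also searched were CCAAT, then TATAAA as the TATA box, then CACGTG as the E-box, and the palindrome of 10 letters that NRF1 binds.
Snrpe: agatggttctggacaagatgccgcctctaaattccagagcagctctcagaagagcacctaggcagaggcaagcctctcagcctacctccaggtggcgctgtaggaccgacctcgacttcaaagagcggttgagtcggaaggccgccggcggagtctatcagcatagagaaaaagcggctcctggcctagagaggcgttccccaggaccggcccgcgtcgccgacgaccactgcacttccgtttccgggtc
Sf3b3: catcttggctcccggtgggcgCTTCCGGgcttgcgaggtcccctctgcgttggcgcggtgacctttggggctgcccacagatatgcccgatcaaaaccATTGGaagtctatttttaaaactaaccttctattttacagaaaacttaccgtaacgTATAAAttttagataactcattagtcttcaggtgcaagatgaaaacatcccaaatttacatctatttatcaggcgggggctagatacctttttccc
Srsf3: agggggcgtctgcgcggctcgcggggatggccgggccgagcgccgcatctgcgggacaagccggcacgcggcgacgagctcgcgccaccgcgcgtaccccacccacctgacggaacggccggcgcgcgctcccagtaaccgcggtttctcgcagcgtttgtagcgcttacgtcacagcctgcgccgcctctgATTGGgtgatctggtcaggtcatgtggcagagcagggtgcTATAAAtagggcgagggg
Srsf6: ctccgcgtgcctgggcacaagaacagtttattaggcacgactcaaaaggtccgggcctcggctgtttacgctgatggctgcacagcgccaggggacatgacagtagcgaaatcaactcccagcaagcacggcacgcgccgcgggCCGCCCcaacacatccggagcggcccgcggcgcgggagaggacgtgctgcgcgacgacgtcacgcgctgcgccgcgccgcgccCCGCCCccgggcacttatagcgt

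Snrpe held none of these letters in the window. Sf3b3 held an ETS core, a CCAAT box and a TATA box, Srsf3 a CCAAT box and a TATA box, and Srsf6 2 GC boxes, with no match overlapping another. RefSeq entries were found for 45 of the 52 genes, 57 starts in all. The ETS core stood in 18 of these 57 windows (31.6%), against 6.91% of all 32851 windows in the table. By family it ranged from 0 of 11 windows of LSm genes to 7 of 8 windows of SF3 genes. The GC box stood in 56.1% of the members' windows, against 32.7% of all windows. By family it ranged from 1 of 4 windows of core Sm genes to 12 of 13 windows of SR genes. The CCAAT box was found in 36.8% of members' windows, against 33.8% of all, the E-box in 5.26% against 6.02%, the TATA box in 7.02% against 12.4%, and the NRF1 palindrome in 1.75% against 0.782%. These are matches of letters only, and nothing here measured what binds there.

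In CH blood 28 of the 52 splicing genes were called lower than in NX blood (53.8%), 3 were higher and 21 did not pass the test, where 19.5% of all genes were called lower and 9.08% higher. Their median log2 change was -1.18, against 0.05 over all genes. The 3 higher genes were Lsm4, Lsm6 and Srsf11, and all 3 lose the call when arrays are scaled on the hybridisation controls, where their changes become -0.32, 0.19 and -0.30. That scaling moves the median of all probe sets to -0.71, against 0.11 in the deposited scaling. It takes the count of lower members to 42 and that of all 18194 genes to 8174, from 3549 as deposited. Without the third CH mouse, 31 members were called lower, and every call among the 37 named members was kept. The count of lower members was 26 without the first CH array and 20 when a gene's probe sets are averaged. Among the 37 named members, that averaging loses the calls of Snrpd3, Lsm6, Lsm14a, Sf3a1, Prpf4b, Prpf6, Prpf38a, Prpf38b and Srsf11. Quantile normalisation loses those of Snrpa1, Lsm3, Prpf6 and Srsf10 among them.

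In REC blood few members were called against NX blood. Every REC array lay above every NX array in 21 members and below in 7, patterns that 12.6% and 8.88% of all genes share. Snrpe, Snrpc, Lsm3, Lsm4, Sf3a2 and Sf3b5 were called higher, 6 in all, and Prpf4b was the 1 called lower. Of all genes 2.50% were called higher and 1.79% lower. The median change was 0.28, against -0.02 over all genes. None of these 7 calls remained with a pseudocount of 1 in place of 16. The count of higher members was 3 without NX array 1, 2 or 4 or REC array 2 or 3, and the call of Prpf4b was lost without array 1, 2 or 3 of either group. Averaging a gene's probe sets loses the calls of Snrpc, Sf3b5 and Prpf4b, and quantile normalisation those of Lsm3 and Sf3a2. CH blood set against REC blood, which shares the CH arrays with the first comparison and the REC arrays with the second, gave 31 members lower (59.6%) and 4 higher, Lsm6, Prpf40b, Srsf6 and Srsf11, with 23.3% and 12.3% of all genes called. Prpf40b, which falls outside the rule for named genes and was added after its values were seen, changed by 1.11 ± 0.41 (adjusted p = 0.049, limma). The median change was -1.36, against 0.07 over all genes. In this comparison 33 members had every CH array below every REC array, as 24.8% of all genes did. Among the named members, averaging a gene's probe sets loses here the calls of Snrpd3, Lsm1, Lsm6, Lsm14a, Sf3a1 and Prpf6. It also loses those of Prpf38a, Prpf38b, Srsf1, Srsf6 and Srsf11.

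**Figure D1:**
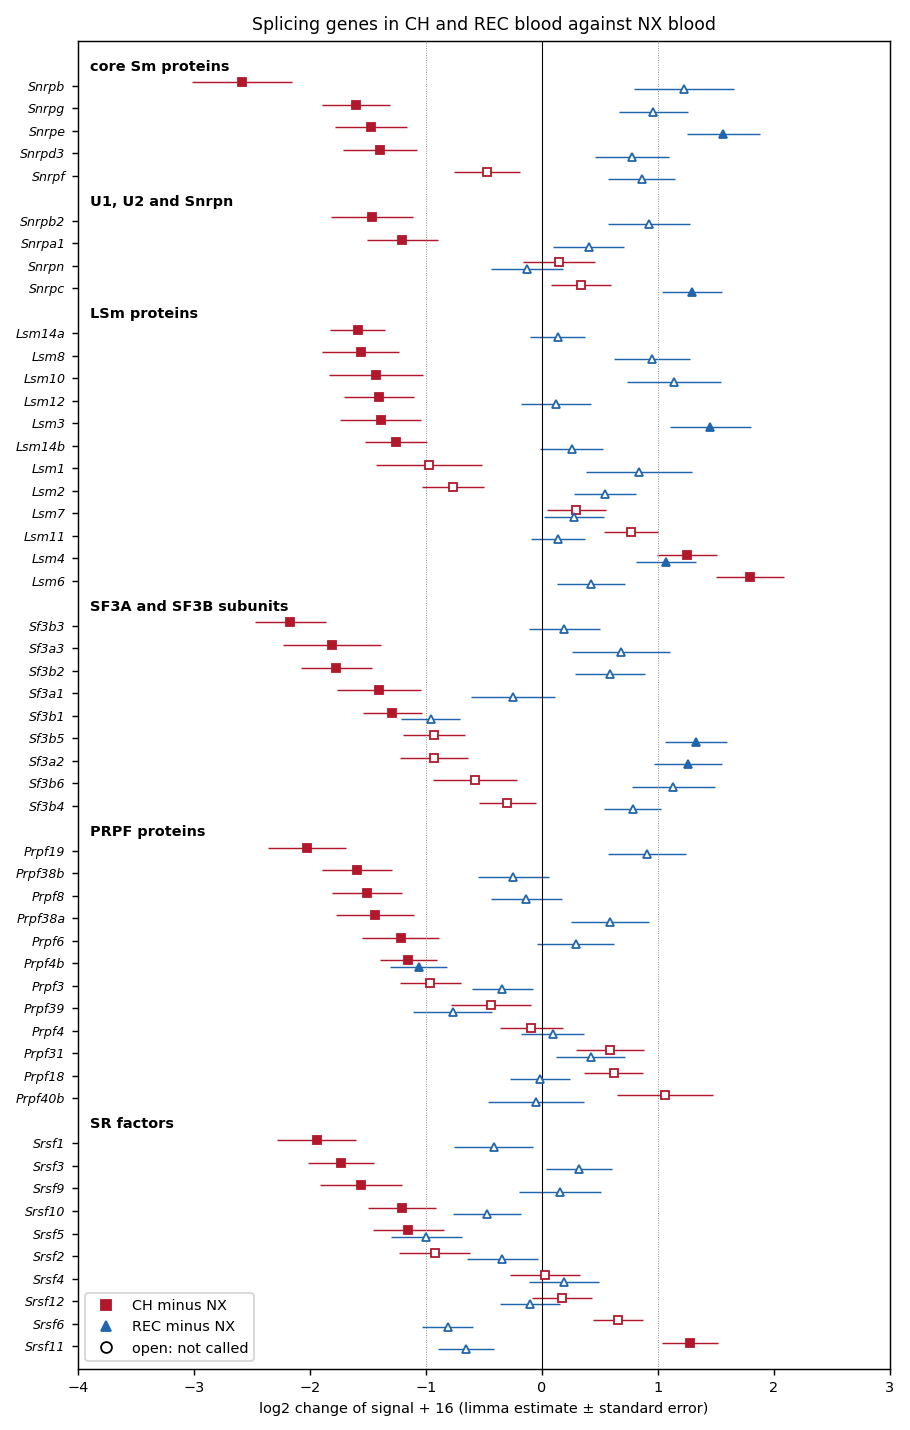
Change of each of the 52 genes on the log2 scale (x axis, limma estimate with its standard error), with CH minus NX as red squares and REC minus NX as blue triangles, filled where called. Core Sm genes lie left of 0 in CH and right of 0 in REC, SR factors mostly left of 0 in both in the deposited scaling, and Lsm4, Lsm6 and Srsf11 are filled on the right in CH, which they are not when arrays are scaled on hybridisation controls.

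Core Sm genes had the largest family median between CH and REC blood. Snrpb, which encodes the SmB protein, had signals of 77.4, 57.8, 433 and 138 on CH arrays, 2021, 2171, 2299 and 1787 on REC arrays, and 672, 868, 1058 and 929 on NX arrays. All CH values lay below all NX values, and all REC values above them. The change was -2.59 ± 0.43 in CH against NX (adjusted p = 0.00050, limma), 1.23 ± 0.43 in REC against NX (adjusted p = 0.13) and -3.81 ± 0.43 in CH against REC (adjusted p = 1.1e-05). Its dimmer probe set, unlike this one, was called in REC against NX, at 1.40 (adjusted p = 0.0041).

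Snrpe, whose upstream sequence is printed above, had signals of 320.0, 305, 869.7 and 456 on CH arrays, 3548, 3997, 4586 and 3100.1 on REC arrays, and 977, 1449, 1502 and 1198 on NX arrays. The groups did not overlap in any pair. It fell by 1.47 ± 0.31 in CH blood (adjusted p = 0.0027, limma) and rose by 1.56 ± 0.31 in REC blood (adjusted p = 0.011), and CH against REC gave -3.04 ± 0.31 (adjusted p = 4.8e-06). Snrpg, the smallest Sm protein, had 696, 610.3, 1718 and 801 on CH arrays, 5849, 5197, 5508 and 4569 on REC arrays, and 2309, 2925, 3108 and 2511 on NX arrays. It was lower in every CH mouse than in any NX mouse (-1.60 ± 0.30, adjusted p = 0.0010, limma). Its REC signals were all above its NX signals, at 0.96 ± 0.30, which did not pass the test (adjusted p = 0.081).

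Snrpd3, the SmD3 partner of SmB, had 474, 479.6, 1432 and 617 on CH arrays, 2788, 3017, 3304 and 3259 on REC arrays, and 1334, 2136, 2020.1 and 1800.4 on NX arrays. The third CH mouse lay above the lowest NX mouse, and the change of -1.40 ± 0.32 passed the test (adjusted p = 0.0045, limma). Snrpf was the exception among the Sm genes in CH against NX, with 241, 198, 289 and 109 on CH arrays, 535, 604, 603 and 387 on REC arrays, and 227, 324, 324 and 262 on NX arrays. Its CH and NX values overlapped (-0.47 ± 0.29, adjusted p = 0.25), and CH against REC passed the test at -1.33 ± 0.29 (adjusted p = 0.0023, limma). Together, 4 of 5 Sm genes were lower in CH than in NX blood, with a median of -1.47, where 19.5% of all genes were called lower. In REC blood all 5 had every array above every NX array, a pattern that 12.6% of all genes share, with a median of 0.96, and 1 of them, Snrpe, was called. CH against REC called all 5 lower, with a median of -2.57, where 23.3% of all genes were called lower. The call of Snrpf is lost there with quantile normalisation, and that of Snrpd3 when its probe sets are averaged. A dimmer probe set of Snrpd3 had every CH array above every REC array. Its change of 0.95 was under 2-fold (adjusted p = 0.0073, limma).

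Snrpb2 and Snrpa1 encode a pair of proteins that bind the U2 RNA together. Snrpb2 had 204, 92.6, 411 and 224 on CH arrays, 878, 1089, 1618 and 1119.7 on REC arrays, and 573, 547, 801 and 512 on NX arrays. It was lower in CH than in NX blood at -1.47 ± 0.35 (adjusted p = 0.0062, limma), and Snrpa1 likewise at -1.20 ± 0.31 (adjusted p = 0.0089). Snrpc, the U1 protein that steadies the pairing of U1 with the start of the intron, did not follow them. It had 369, 423, 276 and 398 on CH arrays, 544, 769.7, 1004 and 634 on REC arrays, and 229.9, 347, 338 and 241 on NX arrays. CH and NX values overlapped (0.33 ± 0.26, adjusted p = 0.37), while REC values were all higher than NX values (1.29 ± 0.26, adjusted p = 0.011, limma). With scaling on the hybridisation controls the CH change of Snrpc turned to -1.18. Snrpn, an Sm paralogue known from brain, stayed between 4.80 and 41.3 on all arrays, among the dimmest signals of the set.

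Among LSm genes, 6 of 12 were lower and 2 higher in CH than in NX blood, with a median of -1.12, and 8 were lower and 1 higher in CH than in REC blood, with a median of -1.52. The shares over all genes were 19.5% and 9.08% in CH against NX, and 23.3% and 12.3% in CH against REC. All 12 LSm genes lay above 0 in REC against NX, with a median of 0.49, and 2 of them were called higher, beside 2.50% of all genes. Lsm8 and Lsm1 distinguish the nuclear ring on U6 RNA from the cytoplasmic ring that acts in mRNA decay. Lsm8 had 150.3, 57.9, 234 and 85.4 on CH arrays, 629, 834, 914 and 635 on REC arrays, and 325, 371, 449 and 372 on NX arrays, with no overlap between any pair of groups. The change in CH was -1.56 ± 0.33 (adjusted p = 0.0026, limma). Lsm1 ranged over 11.8 to 178 in CH, 221 to 391 in REC and 138 to 219 in NX mice, and CH against NX did not pass the test (-0.97 ± 0.46, adjusted p = 0.13). CH against REC called both lower, Lsm8 at -2.51 ± 0.33 (adjusted p = 4.5e-05, limma) and Lsm1 at -1.81 ± 0.46 (adjusted p = 0.0066). The call of Lsm1 is lost when its probe sets are averaged.

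Lsm3, a subunit of both rings, had 56.1, 97.8, 239 and 177 on CH arrays, 1049, 1086, 1105 and 800.5 on REC arrays, and 239, 406, 388 and 423 on NX arrays. It fell by 1.39 ± 0.35 in CH (adjusted p = 0.0079, limma) and rose by 1.45 ± 0.35 in REC (adjusted p = 0.028). The REC call was lost in the test without moderation, and without any single NX array or REC array 1, 2 or 3. Lsm4, also in both rings, was called higher in CH and in REC than in NX blood. Its signals were 1120.5, 961, 652 and 1371 on CH arrays, 854, 1074, 859.8 and 740.1 on REC arrays, and 325, 457, 479 and 386 on NX arrays. No CH or REC value reached down to the NX values, and the changes were 1.25 ± 0.26 in CH (adjusted p = 0.0024, limma) and 1.07 ± 0.26 in REC (adjusted p = 0.029), the first turning to -0.32 with scaling on the hybridisation controls. Its REC call too was lost without any single NX array or REC array 1, 2 or 3.

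Lsm6, again a member of both rings, was highest in CH mice. It had 1749.8, 2903, 2036 and 3644 on CH arrays, 1022, 809, 1039 and 949 on REC arrays, and 442, 849, 687 and 949 on NX arrays. CH exceeded NX by 1.79 ± 0.29 (adjusted p = 0.00045, limma) and REC by 1.37 ± 0.29 (adjusted p = 0.0022), the second turning to -1.03 with scaling on the hybridisation controls. Lsm10, which with Lsm11 replaces a pair of Sm proteins in the U7 particle that trims histone mRNA, had 47.5, 2.60, 66.2 and 49.4 on CH arrays, 259, 354, 377 and 183 on REC arrays, and 83.6, 143, 136 and 123 on NX arrays. All CH values were the lowest (-1.43 ± 0.40, adjusted p = 0.016, limma), and the call was lost without the second CH array. Lsm14a, a protein of cytoplasmic RNA granules that is not part of the rings, fell by 1.59 ± 0.24 in CH (adjusted p = 0.00024, limma) and measured 0.14 ± 0.24 in REC against NX (adjusted p = 0.84).

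The 9 SF3A and SF3B genes all had estimates below 0 in CH, where 5 were lower than in NX blood and 4 did not pass the test, and 8 were lower than in REC blood. Their medians were -1.29 in CH against NX, 0.68 in REC against NX and -2.19 in CH against REC. Over all genes 19.5% were called lower in CH against NX and 23.3% in CH against REC. Sf3b3, a large scaffold subunit whose upstream sequence is printed above, had 82.2, 115, 303 and 121 on CH arrays, 719, 846, 866 and 689 on REC arrays, and 659.6, 663, 717 and 669.7 on NX arrays. CH stood clear of both other groups, at -2.17 ± 0.31 against NX (adjusted p = 0.00016, limma), and REC and NX values overlapped. Sf3b2, which contacts RNA near the branch site, fell by 1.77 ± 0.31 (adjusted p = 0.00065). Sf3a3, a subunit of SF3A, had 18.8, 25.6, 107 and 13.1 on CH arrays, 225, 352, 304 and 169 on REC arrays, and 84.3, 203, 213 and 141 on NX arrays, with the third CH mouse inside the NX range (-1.81 ± 0.42, adjusted p = 0.0050, limma).

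Sf3b5, one of the smallest subunits, had 165, 105, 196 and 235 on CH arrays, 877, 931, 954 and 741 on REC arrays, and 236, 416, 387 and 337 on NX arrays. The REC values were all above the NX values, a rise of 1.33 ± 0.27 (adjusted p = 0.012, limma), and the CH change of -0.93 ± 0.27 was under 2-fold (adjusted p = 0.017). Sf3a2 rose by 1.26 ± 0.29 in REC (adjusted p = 0.023, limma). Sf3a1 fell by 1.41 ± 0.36 in CH (adjusted p = 0.0089, limma), a call that was lost without the fourth CH array, whose signal of 5.99 lay far below the other CH values of 60.1 to 64.8. Sf3b1, the subunit that clasps the branch site, was added after its values were seen because it departed from its complex. It had 957, 688, 1579 and 932 on CH arrays, 1212, 1199.9, 1258 and 1352 on REC arrays, and 2463, 2705, 2698 and 2012 on NX arrays. Both CH and REC values lay below all NX values, at -1.29 ± 0.26 (adjusted p = 0.0017, limma) and -0.96 ± 0.26 (adjusted p = 0.045), the second under 2-fold.

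Of 12 PRPF genes, 6 were lower in CH than in NX blood, beside 19.5% of all genes. The PRPF median was -1.06 in CH against NX and -0.03 in REC against NX. Prpf19, a ubiquitin ligase that founds the complex activating the spliceosome, had 239, 345, 911 and 323 on CH arrays, 3600.2, 2984, 3616 and 2491 on REC arrays, and 1421, 1717, 2004 and 1577 on NX arrays. No pair of groups overlapped, and the change in CH was -2.03 ± 0.34 (adjusted p = 0.00052, limma). Prpf8, the scaffold of the catalytic centre, had 70.6, 124, 243 and 127 on CH arrays, 332, 377, 322 and 428 on REC arrays, and 308, 400.4, 519 and 396 on NX arrays. It fell by 1.51 ± 0.30 in CH (adjusted p = 0.0018, limma), with REC and NX values mixed. Prpf38a and Prpf38b, which are related to a yeast factor needed for activation, fell by 1.44 ± 0.34 (adjusted p = 0.0050) and 1.60 ± 0.30 (adjusted p = 0.0013). Prpf6, a bridge within the U4/U6.U5 particle, fell by 1.22 ± 0.33 (adjusted p = 0.013, limma), and the call was lost without the first CH array.

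Prpf4b, a kinase that phosphorylates other PRPF proteins, was the 1 member whose brightest probe set was called lower in both groups. It had 888, 781, 1083 and 619.9 on CH arrays, 671, 904, 920.4 and 1076 on REC arrays, and 2199, 1860.5, 1902 and 1522 on NX arrays. CH and REC values occupied the same range, below every NX value. The changes were -1.15 ± 0.25 in CH (adjusted p = 0.0028, limma) and -1.06 ± 0.25 in REC (adjusted p = 0.023). Dimmer probe sets of 4 other members were also called lower in both groups, those of Prpf39 at -1.77 and -1.25 in CH and -1.29 and -1.65 in REC. Prpf39, a factor related to a yeast U1 protein, was named after its values were seen, and its brightest probe set gave -0.44 in CH and -0.77 in REC, not called. In Sf3b1 such a probe set gave -1.05 in CH and -1.47 in REC, in Srsf1 -1.44 and -1.38, and in Srsf11 -1.48 and -1.08.

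Of 10 SR factors, 5 were lower and 1 higher in CH than in NX blood, with a median of -1.04, 0 were called in REC against NX, with a median of -0.38, which turns to 0.35 with scaling on the hybridisation controls. CH against REC gave 3 lower and 2 higher, beside the 23.3% and 12.3% of all genes called. In CH against NX those shares were 19.5% and 9.08%. In REC against NX limma gave 3 SR genes an unadjusted p under 0.05, Srsf5, Srsf6 and Srsf11, and the test without moderation of the variance also called 0. Srsf1, the founding SR protein, had 616, 559, 1993 and 1291 on CH arrays, 3105, 2469, 3035 and 2759 on REC arrays, and 3707, 4164, 4132 and 3222 on NX arrays. Every CH value was below every REC value, and every REC value below every NX value. CH against NX gave -1.94 ± 0.34 (adjusted p = 0.00079, limma) and REC against NX -0.42 ± 0.34 (adjusted p = 0.60).

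Srsf3, the smallest SR protein, had 477, 537, 1269.6 and 812 on CH arrays, 2511, 3121, 3431 and 3113 on REC arrays, and 2579.7, 2662, 2273 and 2208 on NX arrays. It was low in CH mice alone among the 3 groups, at -1.73 ± 0.29 against NX (adjusted p = 0.00049, limma) and -2.05 ± 0.29 against REC (adjusted p = 7.5e-05). Srsf9 followed the same order, with 22.1, 55.2, 131 and 80.7 on CH arrays, 187, 279.7, 219 and 302 on REC arrays, and 189.8, 253, 262 and 174 on NX arrays (-1.56 ± 0.35 in CH against NX, adjusted p = 0.0039, limma).

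Srsf5, known in rat liver cells as a gene that insulin induces, had 538, 791, 1753 and 689 on CH arrays, 868, 911, 1039 and 981 on REC arrays, and 1821, 1749, 2168 and 1917 on NX arrays. The third CH mouse fell just inside the NX range, and all REC mice below it. The changes were -1.15 ± 0.31 in CH (adjusted p = 0.011, limma), lost without the first CH array, and -0.997 ± 0.31 in REC (adjusted p = 0.080). Srsf10, a factor that represses splicing when dephosphorylated, fell by 1.20 ± 0.30 in CH (adjusted p = 0.0068, limma), lost without the fourth CH array. Srsf2 had 541, 823, 1422 and 1262 on CH arrays, 1621, 1365, 1117 and 1679 on REC arrays, and 1530.5, 2408, 1620.4 and 1805 on NX arrays. Its CH values all lay below its NX values, but the change of -0.93 ± 0.30 was under 2-fold (adjusted p = 0.034). Of the 4 probe sets of Srsf2, 1 dimmer one was called lower in CH than in NX blood, at -1.85 (adjusted p = 0.0020, limma).

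Srsf11 and Srsf6 had estimates above 0 in CH in the deposited scaling. Srsf11, an SR-like protein, had 978, 1126, 931 and 1600.5 on CH arrays, 222, 272, 283 and 378 on REC arrays, and 464, 445, 492 and 429 on NX arrays. CH was above NX and NX above REC in every mouse, at 1.28 ± 0.24 in CH against NX (adjusted p = 0.0012, limma) and 1.94 ± 0.24 in CH against REC (adjusted p = 2.9e-05), values that turn to -0.30 and -0.42 with scaling on the hybridisation controls. Srsf6, whose 2 GC boxes are marked above, had 1796, 2758, 2319.6 and 2507 on CH arrays, 749.7, 842, 771 and 959 on REC arrays, and 1279, 1436, 1660.0 and 1509.7 on NX arrays. The 3 groups were again fully apart, and CH against REC passed the test at 1.47 ± 0.22 (adjusted p = 0.00013, limma), turning to -0.93 with that scaling. Srsf6 changed by 0.66 ± 0.22 in CH (adjusted p = 0.037) and -0.81 ± 0.22 in REC (adjusted p = 0.048), both under 2-fold, and with that scaling the first turns to -0.94 and the second is -0.01. Srsf4 overlapped throughout (0.02 ± 0.30 in CH against NX, adjusted p = 0.96), and Srsf12 stayed between 0.0697 and 16, too dim to compare.

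**Figure D2:**
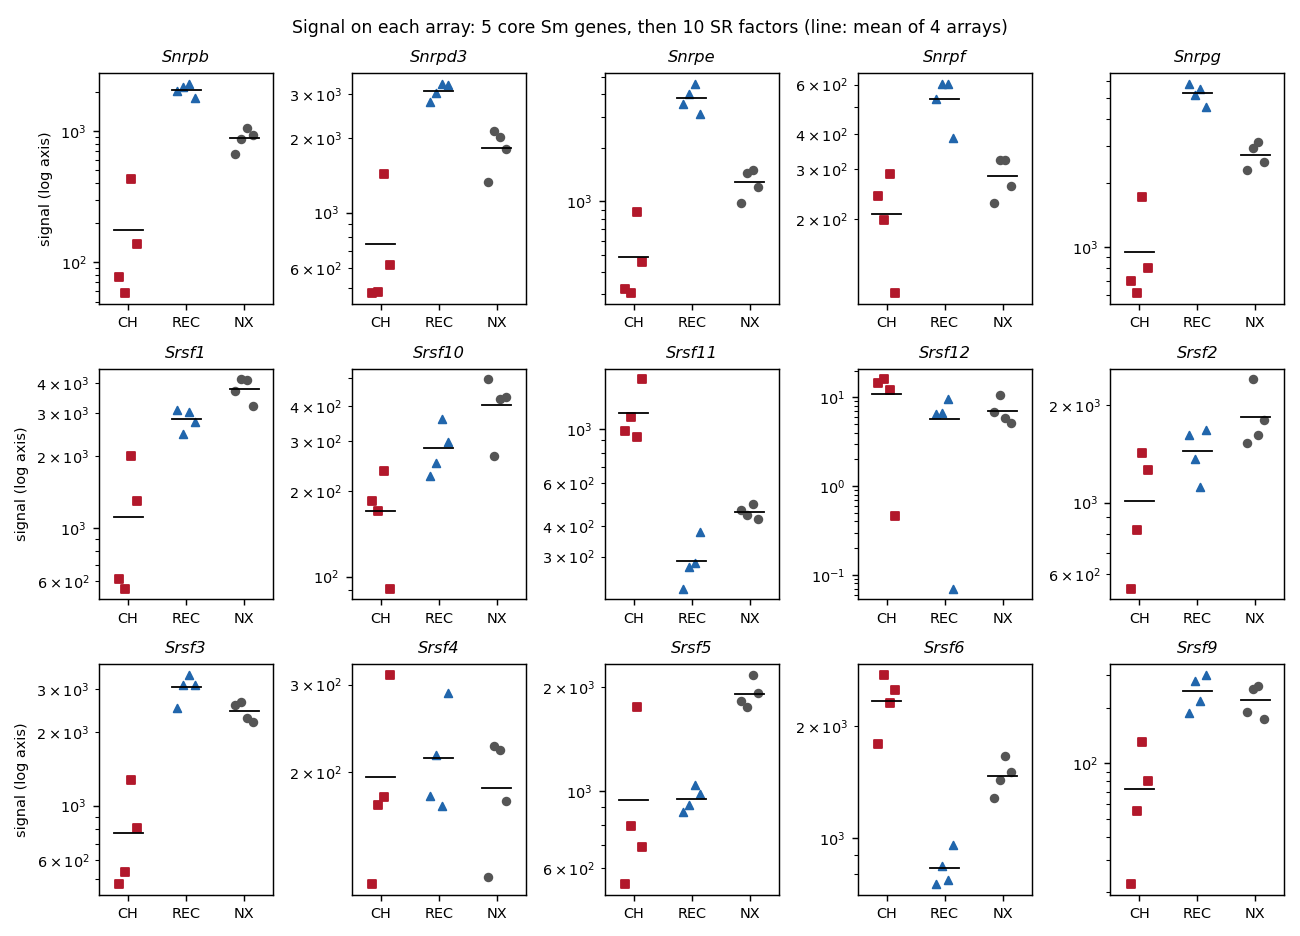
Signal (y axis, log scale) of the 5 core Sm genes in the top row and the 10 SR factors below, on each CH, REC and NX array, with a line at the mean of 4. All 5 Sm genes have their REC points above their NX points, whereas Srsf1, Srsf5, Srsf6 and Srsf11 have their REC points below them in the deposited scaling.

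Set side by side, Sm and SR genes stood furthest apart on the REC arrays. The Sm median minus the SR median of the log2 deviation from the NX mean was -0.55, -0.86, -0.30 and -0.62 on CH arrays, 1.36, 1.57, 1.28 and 1.18 on REC arrays, and -0.32, 0.06, 0.09 and -0.01 on NX arrays. The REC arrays lay apart from all others, and the third CH array fell inside the NX range. From the group means, the difference was -0.43 in CH against NX, 1.34 in REC against NX and -2.19 in CH against REC. These are descriptions of gene groups whose change was known when they were set against each other, and no test is attached. Of the 10 SR genes, 4 had every REC array below every NX array in the deposited scaling, a pattern that 8.88% of all genes share, and 3 of the 10 had a REC change above 0, or 8 of the 10 with scaling on the hybridisation controls.

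**Figure D3:**
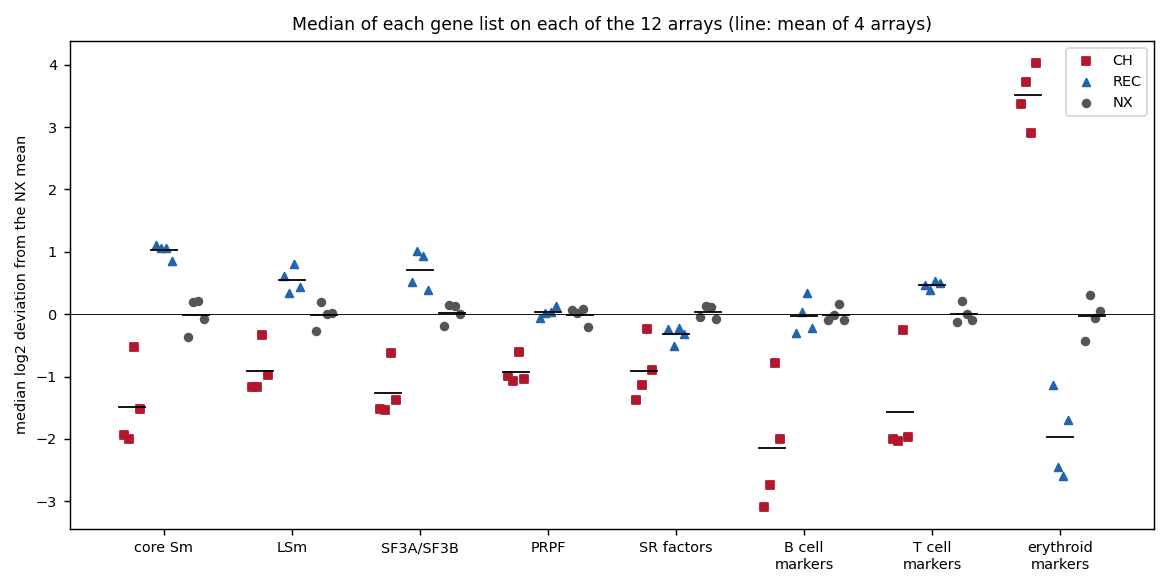
Median log2 deviation from the NX mean over each gene list (y axis) on each of the 12 arrays, grouped as CH, REC and NX, with a line at the mean of 4 arrays. The third CH array is the highest CH point for every splicing list and for B and T cell markers, and in the deposited scaling REC points lie above NX points for Sm and below for SR genes.

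B and T cell markers were lower in CH than in NX blood, as were the medians of these lists, whereas erythroid markers were higher. On the third CH array the median deviation from the NX mean was -0.78 for B cell markers, -0.25 for T cell markers and -0.53 for core Sm genes. On the other CH arrays it was -3.08 to -1.99 for B cell markers, -2.04 to -1.96 for T cell markers and no higher than -1.52 for core Sm genes, so that 1 mouse was nearest to NX in all 3 lists. The summed T cell signal was 1089 to 4332 in CH, 8710 to 9234 in REC and 4802 to 6630 in NX mice, and the summed B cell signal 2054 to 11297 in CH, 18937 to 22488 in REC and 16183 to 19598 in NX mice. Of 5 NK cell markers, 2 were lower and 1 higher in CH than in NX blood, and 2 were higher in REC than in NX blood, where the REC changes spanned -0.62 to 1.43. Their sums were 1237 to 2239 in CH, 6736 to 10829 in REC and 2563 to 4428 in NX mice. The shares over all genes were 19.5% lower and 9.08% higher in CH against NX, and 2.50% higher in REC against NX. Of 5 monocyte markers, 1 was lower in CH than in NX blood (20%), close to the 19.5% of all genes called lower. The monocyte sums were 419 to 1811 in CH, 1708 to 2887 in REC and 1282 to 2349 in NX mice. Of 6 neutrophil and 7 platelet markers, limma called 0 in CH against NX, and 0 had an unadjusted p under 0.05. The defining B cell factor Pax5 averaged under 16 in CH and REC mice, Rhag under 16 in REC mice, and the probe set of Hba-a1 under 16 in every group. The part that these cells, the hybridisation controls or the actin ratio have in the splicing genes' changes was not tested.

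Probe sets of 1 gene did not always tell the same story. Of the 35 members with more than 1 probe set, 5 had all probe sets called the same way in CH against NX, 19 had some called and none the other way, 8 had none called, and 3 had calls in both directions, Lsm6, Srsf11 and Snrpd3. Over all 136 probe sets, 63 were lower and 4 higher in CH than in NX blood, where 13.9% and 8.04% of all probe sets were called. In REC against NX, 8 were lower and 11 higher, where 2.74% and 1.62% of all were called. Sf3b6, named after its values were seen, had 2 of its 4 probe sets called higher in REC than in NX blood. The larger change was 2.05 (adjusted p = 0.0014, limma), while its brightest probe set gave 1.13, not called (adjusted p = 0.092). CH against REC gave 62 lower and 7 higher, beside 15.2% and 12.6% of all. Calls in both directions came there from 3 members, Lsm6, Srsf1 and Srsf6. In CH against NX, Lsm6 gave 1.79 from its brightest probe set and -1.38 from another (adjusted p = 0.0046, limma). The signals of the other averaged 68.8 ± 38.6 in CH, 245 ± 45.2 in REC and 189 ± 39.4 in NX mice (SD, n = 4 each). Srsf11 gave 1.28 and -1.48, the second from a probe set that averaged 10.5 ± 10.4 in CH and 54.5 ± 8.14 in NX mice. Snrpd3 gave -1.40 and 1.16, the second at 262 ± 40.9 in CH and 111 ± 34.5 in NX mice. Taking the mean over a gene's probe sets, 20 members were lower and 1 higher in CH against NX.

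Probe sets of SR genes differed too. Srsf1 had 7 probe sets, of which 2 were called lower in REC than in NX blood, at -1.11 (adjusted p = 0.013, limma) and -1.38 (adjusted p = 0.0042), while the brightest gave -0.42. Of 4 probe sets of Srsf11, 1 was called lower in REC than in NX blood, at -1.08 (adjusted p = 0.036). Srsf6 had 4, of which the 3 brightest lay between 0.59 and 0.75 in CH against NX and the dimmest gave -1.40 (adjusted p = 0.0024), and in REC against NX the 4 spanned -0.81 to -0.37, none called. In CH against REC the 3 brightest of Srsf6 were called higher, and the dimmest lower at -1.02 (adjusted p = 0.014, limma). The probe set sequences were not used here, so which transcript ends they read cannot be stated.

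**Figure D4:**
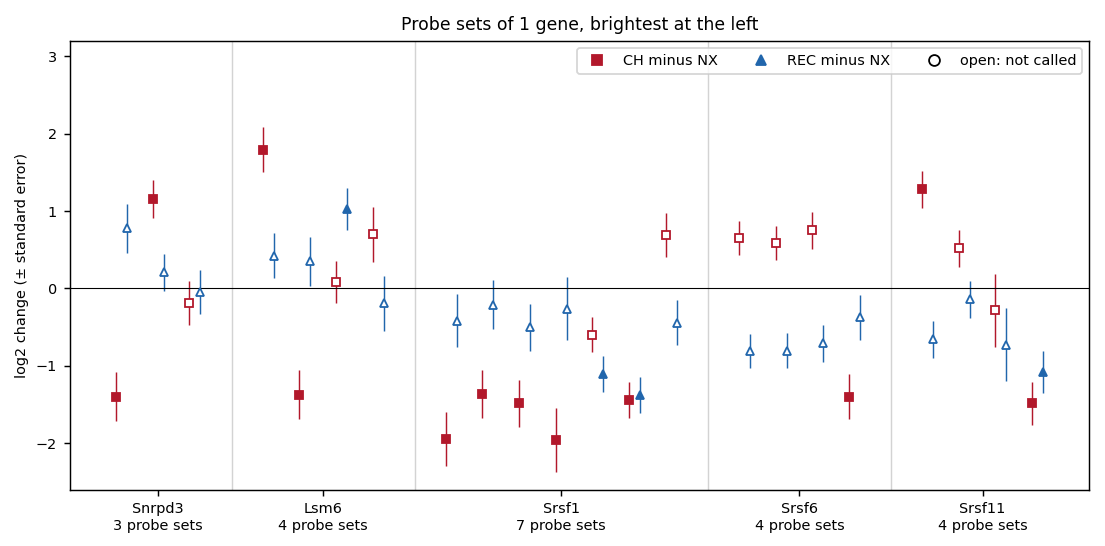
Log2 change (y axis, with its standard error) of each probe set of 5 members, brightest at the left, with CH minus NX as red squares and REC minus NX as blue triangles, filled where called. Within Snrpd3, Lsm6 and Srsf11 filled red squares lie on both sides of 0.

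Other genes of the pathway were taken by role. Their counts stand beside 19.5% of all genes called lower and 9.08% called higher in CH against NX. Of 14 measured genes that assemble snRNPs, 5 were lower and 2 higher in CH than in NX blood, with a median of -0.95. Smn1, the gene lost in human spinal muscular atrophy, averaged 28.7 ± 28.8 in CH, 119 ± 29.9 in REC and 99.7 ± 14.5 in NX mice (-1.59 in CH against NX, adjusted p = 0.0053, limma). Clns1a, a chaperone that holds Sm proteins before assembly, averaged 225 ± 98.6 in CH, 1185 ± 119 in REC and 603 ± 108 in NX mice (-1.44, adjusted p = 0.0018). Strap, which binds the SMN complex, opposed them, at 1283 ± 329 in CH, 438 ± 66.6 in REC and 209 ± 34.0 in NX mice (2.51, adjusted p = 8.2e-06). Strap was called higher in both CH and REC blood, the second call being lost without any single NX or REC array. The other higher gene was Gemin7 of the SMN complex (1.15). Strap and Gemin7 lose their CH calls with scaling on the hybridisation controls, at 0.93 and -0.41, and the call of Clns1a is lost when its probe sets are averaged. Gemin7 also loses its call with median centring and without CH array 4.

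Of 10 genes listed for SR kinases and import, 7 were lower in CH than in NX blood, with a median of -1.49, where 19.5% of all genes were called lower. Srpk1, a kinase that sends SR proteins to the nucleus, averaged 209 ± 96.1 in CH, 776 ± 141 in REC and 762 ± 26.8 in NX mice (-1.89, adjusted p = 0.00031, limma). Srpk3, its relative known from muscle, changed by -2.27 (adjusted p = 0.00058), and Clk4, a nuclear SR kinase, by -1.62 (adjusted p = 0.0061). In REC against NX 1 of the 10 was higher and 1 lower, Ppp1r8 (1.46) and Clk1 (-1.38), both named after their values were seen. Over all genes 2.50% were called higher and 1.79% lower. Ppp1r8 encodes a phosphatase regulator, not a kinase or import factor.

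The 40 other spliceosome genes had 18 lower (45%) and 5 higher (12.5%) in CH than in NX blood, with a median of -0.82. For these and the lists that follow, the shares over all genes were 19.5% lower and 9.08% higher. The largest changes were upward, in Snrnp25 of the minor spliceosome (2.47, adjusted p = 0.00010, limma) and in Crnkl1 (2.08, adjusted p = 0.00016) and Bcas2 (1.99, adjusted p = 9.8e-05) of the complex named after Prpf19. Crnkl1 averaged 1055 ± 464 in CH, 219 ± 25.5 in REC and 225 ± 47.3 in NX mice, while Prpf19 itself fell in CH. The other 2 higher genes were Dhx8 (1.30) and Cwc15 (1.15). With scaling on the hybridisation controls none of the 5 is called, and Dhx8 and Cwc15 turn to -0.18 and -0.44. The call of Cwc15 is also lost with median centring and without CH array 4, and that of Crnkl1 when probe sets are averaged. Of 15 SR-related and exon junction genes, 10 were lower and 1 higher, with a median of -1.24, including Rbm5 (-2.07), Rbm39 (-1.88) and Son (-1.78), while the higher one was Acin1 (1.65). Of 23 hnRNP genes, whose products coat nascent RNA and often oppose SR factors, 11 were lower and 4 higher, with a median of -0.50, including Hnrnph1 (-2.12), Hnrnpa0 (-2.05) and Hnrnph3 (-1.96). The 4 higher were Pcbp2 (1.89), Hnrnpul1 (1.88), Hnrnpk (1.098) and Hnrnpl (1.02). The summed hnRNP signal was 33068, 39004, 41233 and 52536 on CH arrays, 30999.7 to 35017 on REC arrays and 34305 to 37097 on NX arrays, so that 3 CH arrays exceeded every NX array. With scaling on the hybridisation controls Acin1 and the 4 hnRNP genes lose their calls, and Hnrnpk and Hnrnpl turn to -0.51 and -0.37. Gemin7, Dhx8, Cwc15, Acin1 and these 4 were named after their values were seen. In REC against NX the medians were 0.48 for snRNP assembly, -0.06 for SR kinases and import, 0.43 for other spliceosome genes, -0.39 for SR-related and exon junction genes and -0.08 for hnRNP genes.

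The size of the gene went with the REC change among the members. Across the 52 genes, the annotated span on the genome and the change in REC against NX had a Spearman rho of -0.46, against -0.20 over 18032 genes with a span, a description across genes that share arrays and are not independent replicates. In CH against NX it was 0.02 among the members and -0.08 over all genes. Sf3b5, at 0.734 kb, was the shortest member and among the highest in REC, and Prpf4b, at 31.2 kb, and Sf3b1, at 42.3 kb, were among the lowest, though Srsf5, at 5.01 kb, and Srsf6, at 5.61 kb, were also low.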

How the data were processed

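The authors took RNA from whole blood, hybridised it to Affymetrix mouse genome arrays and stored raw intensities in GCOS. The labels give linear amplification of poly(A)-primed cDNA. What the authors deposited is 1 linear intensity for each probe set on each array, scaled so that the mean trimmed by 2% at each end is 150 on every array. The paper's methods name GC-RMA in Partek for the authors' own analysis. That algorithm yields log2 values, whereas these are linear and share a trimmed mean, so the program behind them is not known. They carry no detection call, so no background level could be set. The number of arrays limits the precision.

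Signals were taken as log2(signal + 16) and fitted with limma 3.58.1 in R 4.3.3 on all 12 arrays, a mean per group (CH, REC, NX; 4 mice each), with 9 residual degrees of freedom. Adjusted p-values cover all 45101 probe sets. Of these, 34958 name 1 gene, 932 several and 9211 none in the platform annotation. The symbols of 34754 were matched through gene numbers. Snrpd1, Snrpd2, Snrpa and Lsm5 appear only on probe sets that name several genes, 10 of which were left out, and Srsf7 was not used here. The fit was tested on simulated data with known changes.

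The members, the lists of pathway genes and cell markers, and the pairing of Sm with SR genes were chosen with earlier results of these data known, so counts describe and support nothing by themselves. Named genes were all Sm and SR genes, up to 4 called members per other family with the largest change in CH against NX and up to 4 in CH against REC, every member called in REC against NX, and up to 3 called genes per pathway list. Alternatives were quantile normalisation, median centring, scaling on 18 hybridisation controls, a pseudocount of 1, leaving out probe sets under 32, averaging all probe sets of a gene, the test without moderation, the replicate number as a block, and leaving out each array. Each array is 1 mouse, and no array duplicated another. The numbers in the labels do not pair mice. Upstream sequences were cut from RefSeq promoters.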

Additional observations from a re-analysis of the deposited data

Results flagged for a closer look

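Within groups of 4 arrays, 4 of 111 groups (37 named members in 3 groups) had 1 array far from the rest by Dixon's ratio, which chance gives in about 1 group of 20. Lsm3 in REC blood had 800.5 on the fourth array, against 1049 to 1105 on the others. Lsm3 in NX blood had 239 on the first array, against 388 to 423 on the others. Prpf38b in CH blood had 283 on the third array, against 98.2 to 116 on the others. Sf3a1 in CH blood had 5.99 on the fourth array, against 60.1 to 64.8 on the others. The third CH array, high for Prpf38b, was also the highest CH array for 34 of 52 members and for the B and T cell markers, and the part of these in its splicing signals was not tested.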

How the results depend on the processing

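Scaling on the hybridisation controls moved the median of all probe sets to -0.71 in CH against NX, 0.40 in REC against NX and -1.13 in CH against REC, where the deposited scaling gave 0.11, -0.10 and 0.25. With it, 0 members were higher in CH than in NX (3 as deposited), 0 lower and 27 higher in REC than in NX (1 and 6), and 47 lower and 0 higher in CH than in REC (31 and 4). Of all 18194 genes it called 273 higher in CH than in NX (1652 as deposited). In REC against NX it called 121 lower and 4377 higher (325 and 455), and in CH against REC 10986 lower and 296 higher (4242 and 2238). Among named genes, signs turned in CH against NX for Lsm4 (-0.32), Snrpc (-1.18), Srsf4 (-1.41), Srsf6 (-0.94), Srsf11 (-0.30) and Srsf12 (-0.28). In REC against NX they turned upward, none of them called as deposited, for Crnkl1 (0.76), Prpf8 (0.65), Prpf38b (0.54), Sf3a1 (0.48), Srsf2 (0.47), Rbm5 (0.41), Srsf1 (0.39), Srsf10 (0.31), Rbm39 (0.16), Srsf12 (0.13) and Srsf11 (0.12). They turned in CH against REC for Lsm4 (-2.20), Lsm6 (-1.03), Srsf6 (-0.93), Srsf11 (-0.42), Bcas2 (-0.57), Crnkl1 (-0.24), Snrnp25 (-0.36), Srsf12 (-0.41) and Strap (-0.88). Quantile normalisation gave 4 members lower in REC than in NX, and a Sm minus SR difference of 1.87 in REC against NX and -3.03 in CH against REC. Median centring gave 0 lower in REC than in NX, and a pseudocount of 1 gave 0 lower and 0 higher. Without dim probe sets the Sm minus SR difference was -1.98 in CH against REC. The mean over a gene's probe sets gave 1 higher in CH than in NX and 1 higher in CH than in REC, and turned Lsm6 to -0.10, Sf3a1 to 0.019 and Rbm39 to 0.31 in CH against REC. The cause was not tested.

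Leaving out 1 array at a time gave 26 to 31 members lower and 3 to 4 higher in CH against NX, 0 to 1 lower and 3 to 7 higher in REC against NX, and 30 to 32 lower and 3 to 4 higher in CH against REC. The Sm minus SR difference ranged over -0.54 to -0.31, 1.28 to 1.44 and -2.31 to -2.07 in these comparisons. With the replicate block, members lower and higher were 28 and 4 in CH against NX, 1 and 5 in REC against NX, and 31 and 4 in CH against REC. Among named genes Lsm4 (adjusted p = 0.0514, limma) and Hnrnph3 (adjusted p = 0.0562) lost their REC calls. Arrays of the same number correlated at -0.20 to 0.44, and 5 of 12 correlated best with their own number.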
